A study of Drosophila melanogaster with 6 samples.

Results

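The cuticle protein genes described here are those whose FlyBase symbols begin with Cpr and a digit, Lcp, Ccp84A, Pcp, Acp1 or Edg. Of 14737 genes in the deposited table, 98 carry such a symbol, among them 2 annotated pseudogenes, Lcp1Psi and Lcp65APsi. RNA of whole Drosophila melanogaster embryos was compared between OreR, the Oregon-R wild-type strain, and a strain with the CC01391 allele of caper, whose product is an RNA-binding splicing factor. There were 3 biological replicates of each genotype, untreated and sequenced together in a single lane. Embryos came from apple juice plates with yeast, their age is not given in the sources used here, and caper itself was not analysed here. All mutant libraries come from 1 strain and all others from OreR, so effects of the allele and of strain background cannot be told apart. In whole embryos, fewer cells of a type and less RNA per cell cannot be told apart either.

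Cuticle proteins are secreted by the epidermis, by the tracheal tubes and by the lining of the foregut and hindgut, and together with chitin they form the insect exoskeleton. Proteins of the Cpr family carry the Rebers and Riddiford domain, which binds chitin, and the family is known for tandem gene clusters whose members are switched on at different moults. The prefixes record where proteins or RNAs were first found, with Lcp for larval, Pcp for pupal and Acp for adult cuticle, while the Edg genes were isolated as ecdysone-dependent genes of imaginal discs. In embryos the larval cuticle is laid down late, and each moult follows a pulse of the steroid hormone ecdysone.

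Gene counts per library ran from 34815930 to 42956396, and the cuticle protein genes took between 0.0195% and 0.156% of them. Levels are given as CPM, which are counts scaled to a common library size after TMM adjustment, and levels of different genes are compared as CPM per kilobase of exon. Correlations of log2 CPM across genes lay between 0.9887 and 0.9958 within a genotype and between 0.9381 and 0.9681 between genotypes. Of the marker lists used to check the tissue, 11 genes of differentiated embryonic tissues summed to between 2460 and 5457 CPM per library. The chorion and follicle list of 15 genes summed to between 0.4929 and 1.113 CPM, with Cp16 and Cp19 at 0 counts. The list of 14 genes of late larvae and fat body summed to between 2.006 and 2.872 CPM, with Sgs5, Sgs7, Sgs8 and Eig71Ea at 0 counts.

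A small set of cuticle protein genes made up most of the family's RNA in these embryos. Averaged over the 6 libraries, 16 genes reached at least 10 CPM per kb, 29 lay between 1 and 10 CPM per kb, and 53 lay below 1 CPM per kb. The highest were Cpr65Ea at 173.9 CPM per kb, Cpr51A at 123.0, Cpr64Ad at 71.6 and Ccp84Ac at 44.3, followed by Cpr66D, Cpr56F, Lcp65Ag2 and Cpr65Eb between 27.8 and 32.3 CPM per kb. These 8 genes held between 52.0% and 65.4% of the family's summed CPM in each library. At the other end, 9 genes had at most 3 counts over the 6 libraries together, and Cpr72Eb and Lcp65APsi had none. A total of 0 counts allows up to 3 counts over the 6 libraries, and such floors cover counting error alone.

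Several genes named for larval, pupal or adult cuticle had few counts. Lcp1 had 2, 2 and 0 counts in the OreR libraries, in order of replicate number as in all such lists, and 9, 4 and 10 in the mutant libraries. Acp1, an adult cuticle protein gene, had 6 counts in all, and the pupal cuticle gene Pcp had 19. Edg84A, a gene of pupal cuticle, lay between 0.103 and 0.215 CPM in every library, with overlap between the genotypes. Edg78E, another ecdysone-dependent gene, was higher at 1.67, 0.858 and 0.434 CPM in OreR and 0.646, 0.580 and 0.437 CPM in the mutant, again with overlap (adjusted p = 0.18). The remaining gene of that name, Edg91, lay between 0.163 and 0.463 CPM with overlap (adjusted p = 0.38).

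**Figure D1:**
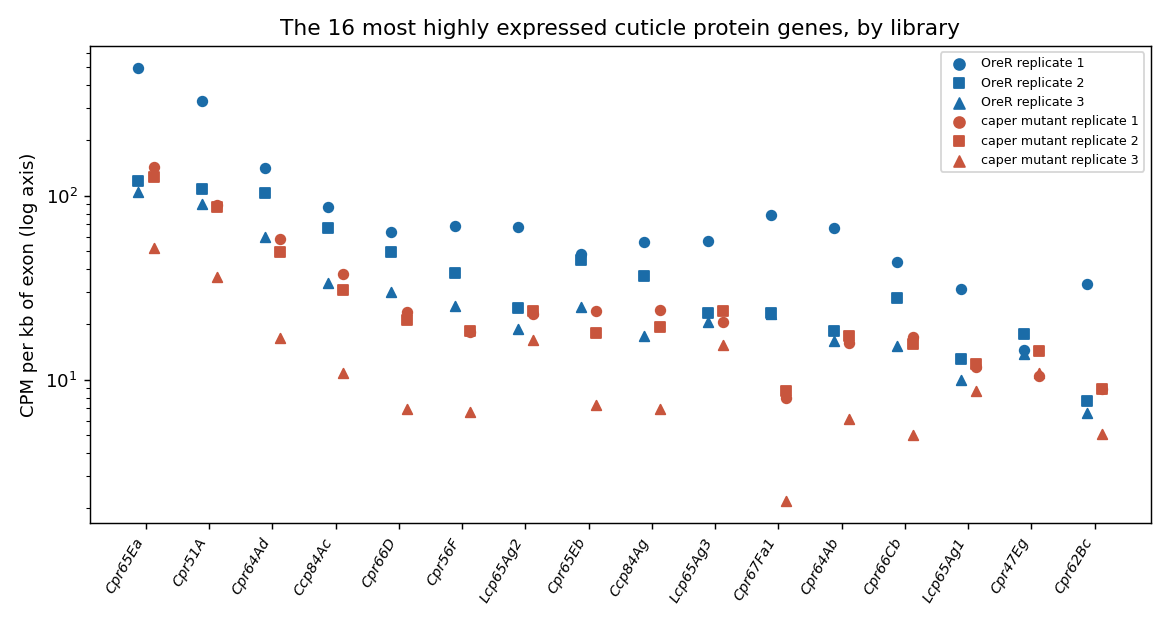
CPM per kb of exon on a log axis for the 16 cuticle protein genes with at least 10 CPM per kb, with a point for each of the 6 libraries. OreR replicate 1 lies above the other 5 libraries for most of these genes, and mutant replicate 3 lies lowest for most.

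The level of the family differed as much between libraries of a genotype as between genotypes. The 98 genes summed to 1454.6, 717.8 and 483.9 CPM in the OreR libraries and to 496.4, 455.6 and 215.1 CPM in the mutant libraries. The genotypes overlap, since OreR replicate 3 lies below mutant replicate 1. OreR replicate 1 was 3.01 times OreR replicate 3, mutant replicate 1 was 2.31 times mutant replicate 3, and the OreR mean (885 ± 507 CPM, SD, n = 3) was 2.28 times the mutant mean (389 ± 152 CPM). Without Cpr65Ea, the most abundant gene, the sums were 1186, 652.9 and 427.6 CPM in OreR and 419.4, 387.1 and 186.9 CPM in the mutant.

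The spread within genotypes ran through most of the 55 genes that passed the filter on low counts. OreR replicate 1 held the highest value of the 6 libraries for 40 of the 55, and mutant replicate 3 the lowest for 32. These shares were not counted over all tested genes. Between OreR replicates 1 and 3, 34 of the 55 differed at least 2-fold with replicate 1 higher, which was true of 3.11% of all 10251 tested genes. The median log2 ratio of those replicates was 1.45 for the 55 genes and -0.03 for all tested genes. Between mutant replicates 1 and 3, 21 of the 55 were at least 2-fold higher in replicate 1, against 5.89% of all tested genes, and the medians were 0.55 and 0.01. The ratios in the 2 genotypes, which share no library, had a Pearson correlation of 0.35 over the 55 genes (Spearman 0.29), and of 0.48 over all tested genes, given as a description because genes share libraries.

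Genes of chitin and of other cuticle structural families were also lowest in mutant replicate 3, while regulators of cuticle and moulting were not. The 34 genes of chitin and cuticle assembly summed to 5183, 5190 and 3906 CPM in OreR and 3870, 3422 and 2716 CPM in the mutant. The 36 genes of other cuticle structural families, mainly Twdl and zona pellucida domain genes, summed to 3740, 3390 and 2369 CPM in OreR and 2136, 1818 and 1182 CPM in the mutant. The 12 regulators summed to 2345, 2777 and 2369 CPM in OreR and 2041, 2196 and 2337 CPM in the mutant, with mutant replicate 3 the highest of its genotype. The lists thus ordered the libraries differently. The 19 early patterning and maternal genes lay between 1003 and 1215 CPM, with overlap between the genotypes. Of these, 3 of 19 tested rose and 0 fell at an adjusted p below 0.05 (median log2 fold change 0.02), namely bcd, grk and sisA, where 26.4% of all tested genes rose and 20.6% fell. With upper quartile scaling 2 rose and 4 fell (median -0.14), against 22.1% and 34.8% of all tested genes. The part of embryo age in these sums was not tested.

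**Figure D2:**
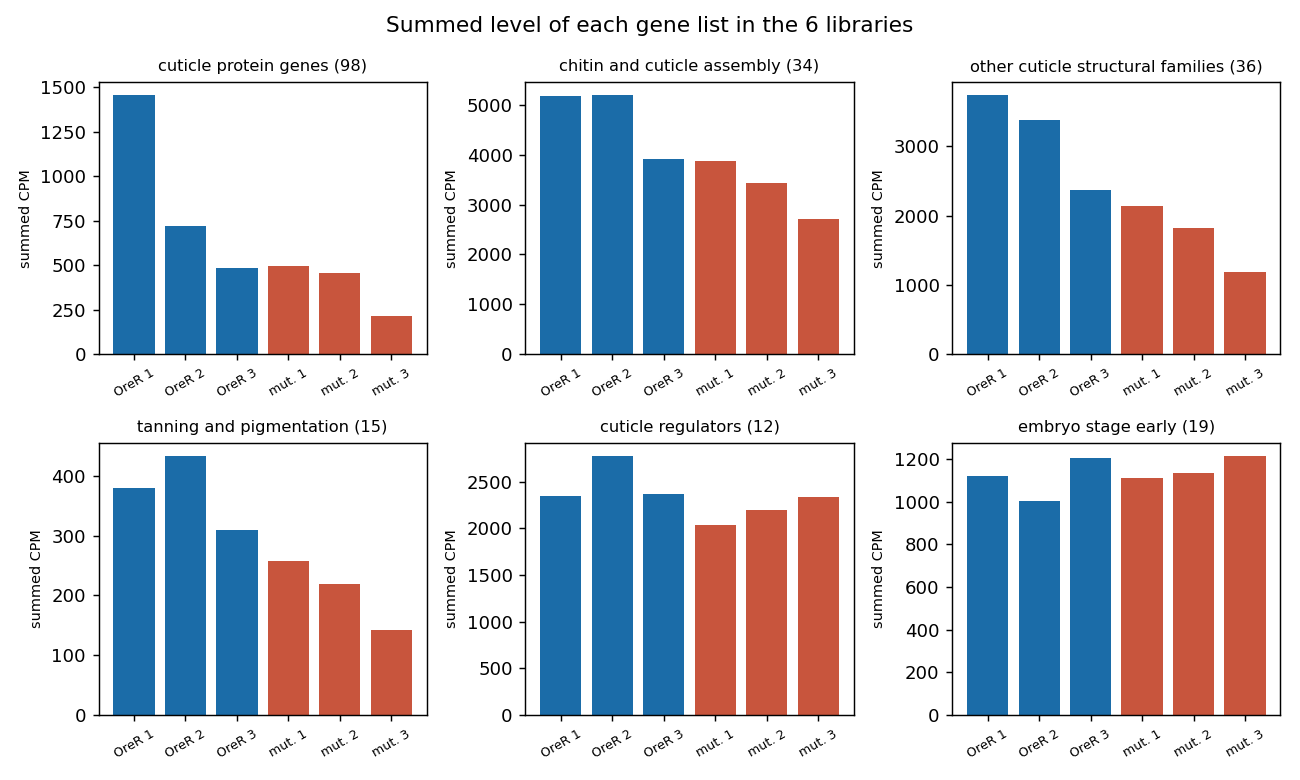
Summed CPM in each of the 6 libraries for the 98 cuticle protein genes and for 5 other gene lists, with the number of genes of each list in the table. The cuticle protein genes run from 1454.6 CPM in OreR replicate 1 to 215.1 CPM in mutant replicate 3. The early embryo list lies between 1003 and 1215 CPM, a sum that does not show changes of single genes such as bcd (2.97-fold higher in the mutant).

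Against this spread, 13 of the 55 tested genes were lower and 2 were higher in the mutant, and 40 did not pass (quasi-likelihood test of edgeR, p adjusted over all genes by Benjamini-Hochberg, threshold 0.05). Of all tested genes, 46.9% passed, 20.6% as lower and 26.4% as higher. With all libraries and no block for replicate number, the 23.6% of cuticle protein genes that fell is near the background. The 3.64% that rose is below it. The fold changes leaned down more than the calls: 48 of the 55 had a negative log2 fold change (87.3%, against 54.9% of all tested genes). The median was -1.04, against -0.07 for all tested genes. With upper quartile scaling 34.8% of all tested genes were lower and 22.1% higher, and 16 and 1 of the 55, and the median of all tested genes shifted by -0.16. The median standard error was 0.45 for these genes and 0.14 for all tested genes. All mutant libraries lay below all OreR libraries for 15 of the 55 (27.3%, against 29.5% of all tested genes) and above them for 4 (7.27%, against 30.8%). In 3 genes, Lcp3, Cpr72Ec and Cpr60D, the filter was passed through the libraries of 1 genotype alone. Leaving out OreR replicate 1 lowered the 13 to 5 and the median to -0.40, and leaving out mutant replicate 2 lowered the 13 to 5, while all tested genes fell to 14.6% and 9.33% lower. Leaving out OreR replicate 3 raised the 13 to 20 of 56 (35.7%), while 15.7% of all tested genes were lower. With annotated junctions alone 15 of 40 (37.5%) were lower, against 19.5% of all tested genes. With all libraries and the replicate number as a block, 26 of 55 (47.3%) were lower, against 22.6% of all tested genes. Whether the share is near the background thus depended on the setting.

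**Figure D3:**
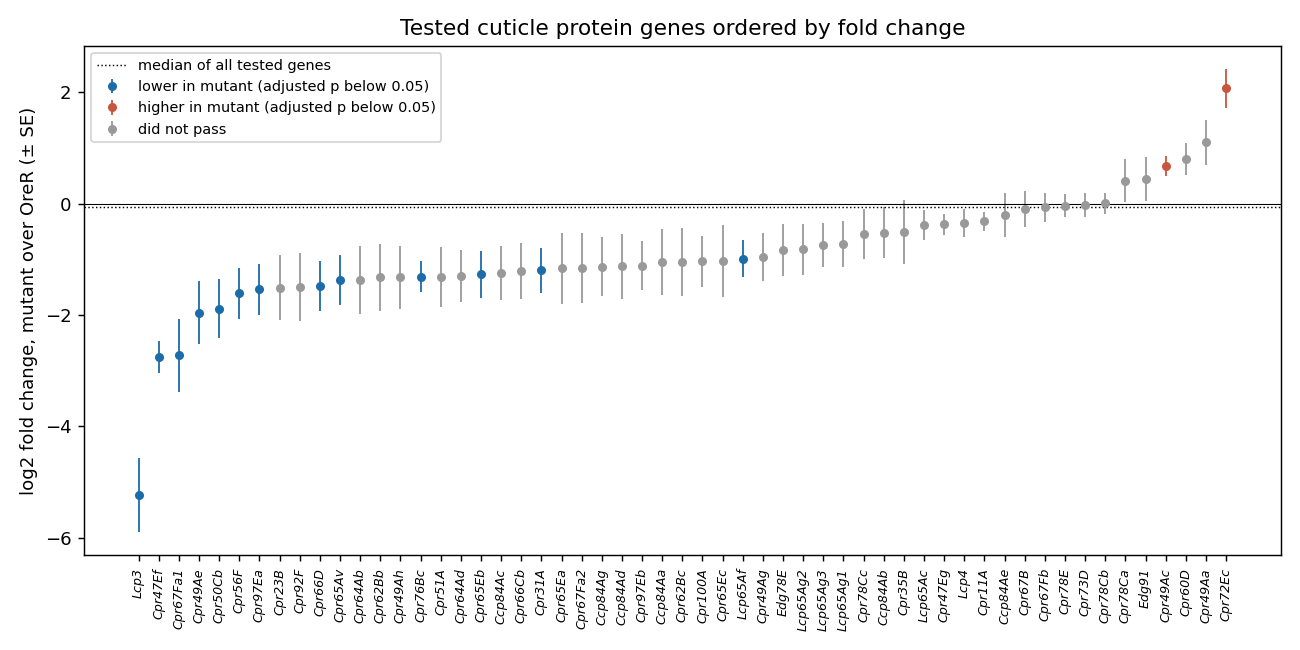
Log2 fold change, mutant over OreR, with its standard error, for the 55 tested cuticle protein genes in order of size, coloured by the outcome of the edgeR test. Most points lie between -2 and 0, and the dotted line marks the median of all tested genes at -0.07. The value of Lcp3 rests on 1 mutant count and depends on the prior count of the fit.

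The decreases of Cpr47Ef, Cpr76Bc and Cpr67Fa1 passed the test with all libraries and on leaving out each library in turn. So did that of Lcp3, which entered the test through its OreR libraries alone and therefore had to differ to be tested. Cpr47Ef (FBgn0033603) had 2.24, 3.64 and 2.36 CPM in OreR and 0.479, 0.319 and 0.412 CPM in the mutant. The genotypes did not overlap, and the log2 fold change was -2.75 ± 0.29 (SE), with an adjusted p of 0.00068. Cpr76Bc (FBgn0036880) had 2.73, 4.03 and 2.58 CPM in OreR and 1.60, 1.19 and 0.952 CPM in the mutant. It fell by 1.32 ± 0.28 on the log2 scale without overlap (adjusted p = 0.0071). In both genes OreR replicate 2 was highest, unlike in most of the family.

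Lcp3 (FBgn0002534), a larval cuticle protein gene, had 17, 23 and 13 counts in OreR and 0, 0 and 1 in the mutant, at a low level in both genotypes. The counts did not overlap, and their ratio was 51.3 with an exact 95% counting interval from 8.83 to 2070 (adjusted p = 0.00092, or 0.00059 without the filter on low counts). Its neighbour Lcp4 had 45, 68 and 48 counts in OreR and 54, 38 and 30 in the mutant, which overlap (log2 fold change -0.35 ± 0.26, adjusted p = 0.29). Lcp1 and Lcp2 of the same cluster were too low to be tested with the filter. Lcp2 had no counts in OreR and 12, 2 and 5 in the mutant, at least 6.54-fold higher with a floor of 3 counts over the OreR libraries. Lcp1, with the counts given above, had a ratio of mutant to OreR of 5.94 (interval 2.03 to 23.6). Without the filter their adjusted p-values were 0.018 and 0.025, while reads of Lcp1 and Lcp2, which are closely similar copies, could have been split between them. Within the cluster of Lcp1 to Lcp4, low counts thus ran in opposite directions in neighbouring genes. Pcp rose in the same way from 0, 0 and 2 counts to 5, 4 and 8 (ratio 8.77, interval 2.08 to 78.3, adjusted p = 0.036 without the filter). It overlaps Gart in the annotation, and although the library kit was a stranded one per the labels, whether the counting used strand is not given in the sources used here.

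Cpr67Fa1 (FBgn0036108) had 43.4, 12.8 and 12.7 CPM in OreR and 4.43, 4.78 and 1.21 CPM in the mutant. Every mutant library lay below every OreR library, and the log2 fold change was -2.72 ± 0.65 (adjusted p = 0.012), or -1.87 to -3.01 on leaving out each library. The adjacent copy Cpr67Fa2 had 13.8, 3.13 and 2.96 CPM in OreR and 3.54, 3.60 and 1.77 CPM in the mutant. Its values overlap and did not pass (log2 fold change -1.16 ± 0.63, adjusted p = 0.16). Mutant replicates 1 and 2 of Cpr67Fa2 lay above OreR replicates 2 and 3. Counts of these similar neighbours are uncertain where reads are shared, and the part of shared reads was not tested. The third gene of the cluster, Cpr67Fb, lay between 0.487 and 0.746 CPM in every library (log2 fold change -0.07 ± 0.26).

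The other 9 decreases each lost the call when at least 1 library was left out. Cpr56F had 86.5, 48.2 and 31.8 CPM in OreR and 22.8, 23.2 and 8.39 CPM in the mutant, and Cpr66D had 69.7, 54.9 and 32.9 CPM in OreR and 25.7, 23.2 and 7.64 CPM in the mutant. Neither overlapped between genotypes, and they fell by 1.61 ± 0.47 and 1.48 ± 0.45 on the log2 scale (adjusted p = 0.026 and 0.031). In the annotation Cpr56F overlaps CkIIbeta2, whose reads could add to its count. The largest falls among the 9 were those of Cpr49Ae (3.90-fold, adjusted p = 0.025) and Cpr50Cb (3.70-fold, adjusted p = 0.023). Cpr97Ea, Cpr65Av, Cpr65Eb, Cpr31A and Lcp65Af fell between 1.98-fold and 2.91-fold, with adjusted p-values from 0.028 to 0.044. Without OreR replicate 1 none of the 9 passed, with smaller log2 fold changes, from -1.34 to -0.60, and adjusted p-values from 0.054 to 0.11. Without mutant replicate 2 none passed either (adjusted p from 0.050 to 0.11), but the log2 fold changes, from -2.15 to -0.99, were as large as with all libraries or larger. Calls were also lost without OreR replicate 2 for 4 of the 9, without mutant replicate 1 for 4 and without mutant replicate 3 for 5.

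Cpr65Ea, Cpr51A and Cpr64Ad, the highest of the family per kb, were lower in the mutant on average without passing the test. Cpr66D, Cpr56F and Cpr65Eb, also among the 8 highest, passed as given above. Cpr65Ea (FBgn0035735) had 268.4, 64.8 and 56.3 CPM in OreR and 76.9, 68.5 and 28.2 CPM in the mutant. OreR replicates 2 and 3 lay among the mutant libraries, and the log2 fold change of -1.17 ± 0.64 did not pass (adjusted p = 0.17). Cpr51A (FBgn0033942) had 213.1, 70.4 and 58.9 CPM in OreR and 58.0, 56.4 and 23.6 CPM in the mutant, separated by less than 1 CPM (log2 fold change -1.31 ± 0.54, adjusted p = 0.080). The groups were thus apart without a call. Cpr64Ad had 136.1, 99.5 and 57.7 CPM in OreR and 55.9, 47.6 and 16.1 CPM in the mutant (adjusted p = 0.054), again without overlap. Cpr51A and Cpr64Ad overlap CG30197 and CG43367 in the annotation. With OreR replicate 1 left out, the log2 fold changes of Cpr65Ea, Cpr51A and Cpr64Ad shrank to -0.06, -0.49 and -0.98 (adjusted p = 0.90, 0.31 and 0.15). Cpr64Ad passed without OreR replicate 3 (adjusted p = 0.040). It also passed with upper quartile scaling, without the filter on low counts and with annotated junctions alone. With the replicate number as a block, Cpr65Ea, Cpr51A and Cpr64Ad all passed. With OreR replicate 1 and mutant replicate 3 both left out, a choice made after the values were seen, the log2 fold change of Cpr65Ea turned to 0.26 (adjusted p = 0.20). Among genes that did not pass, Cpr23B, Cpr92F, Cpr64Ab and Cpr62Bb had the largest log2 fold changes, from -1.51 to -1.33. In that order they were -1.05, -0.39, -0.41 and -0.80 without OreR replicate 1.

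The test called 2 increases, among 7 tested genes with a positive log2 fold change. Of these, 4 had all mutant libraries above all OreR libraries (7.27% of the tested members, against 30.8% of all tested genes). Cpr72Ec and Cpr60D could be tested through the libraries of 1 genotype alone, as given above. Cpr72Ec (FBgn0036619) had 6, 4 and 6 counts in OreR and 21, 25 and 20 in the mutant, or 0.154, 0.0928 and 0.163 CPM against 0.503, 0.725 and 0.514 CPM. The genotypes did not overlap at this low level (log2 fold change 2.07 ± 0.35, adjusted p = 0.0025). This gene entered the test through its mutant libraries alone and had to differ to be tested, and without the filter its adjusted p was 0.0023. Cpr49Ac (FBgn0033725) had 5.07, 5.82 and 4.59 CPM in OreR and 9.33, 8.44 and 6.95 CPM in the mutant. It rose 1.60-fold without overlap (log2 fold change 0.67 ± 0.17, adjusted p = 0.016), though it did not pass without mutant replicate 2 (adjusted p = 0.062) or with upper quartile scaling (adjusted p = 0.052).

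Many cuticle protein genes lie in tandem clusters, and abundant and near-silent genes stood side by side within them. Taking members with at most 2 other table genes between neighbours as a cluster, 69 of the 98 genes fall into 12 clusters of 3 or more. In the largest, the 18 genes from Cpr65Au to Lcp65Ag3 on chromosome arm 3L, Lcp65Ag2, Lcp65Ag3 and Lcp65Ag1 had 29.0, 26.7 and 14.4 CPM per kb, and 5 genes had at most 3 counts in all. The Lcp65Ag genes are similar copies whose counts are uncertain where reads are shared. Lcp65Ag2 had 36.8, 13.3 and 10.2 CPM in OreR and 12.3, 12.9 and 8.98 CPM in the mutant, with overlap and no call (adjusted p = 0.17). The 18 genes summed to 104.5, 41.81 and 35.36 CPM in OreR and 36.52, 38.47 and 27.34 CPM in the mutant. These sums separate OreR replicate 1 from the other 5 libraries, and overlap otherwise.

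In the cluster on arm 3R with the Ccp84A genes, Ccp84Ac and Ccp84Ag stood above the rest, and none of the 6 tested genes of its 8 passed. Ccp84Ac had 91.7, 70.8 and 35.7 CPM in OreR and 39.9, 32.4 and 11.5 CPM in the mutant, and Ccp84Ag had 61.8, 40.4 and 18.9 CPM in OreR and 26.4, 21.3 and 7.59 CPM in the mutant. In both genes the overlap came from OreR replicate 3, which lay below mutant replicate 1 for Ccp84Ac and below mutant replicates 1 and 2 for Ccp84Ag, with log2 fold changes of -1.24 ± 0.48 and -1.13 ± 0.52 (adjusted p = 0.067 and 0.11). Ccp84Ad had 14.3, 4.94 and 2.47 CPM in OreR and 3.73, 3.68 and 2.52 CPM in the mutant (adjusted p = 0.14). Ccp84Aa, Ccp84Ab and Ccp84Ae lay between 0.597 and 4.14 CPM, and Ccp84Af had 35 counts in all. Without OreR replicate 1, the log2 fold changes of Ccp84Ae and Ccp84Ab turned from -0.21 and -0.52 to 0.37 and 0.06, neither passing.

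The cluster with Cpr49Aa to Cpr49Ag on arm 2R held calls in both directions. Cpr49Ae had 13.1, 6.17 and 3.88 CPM in OreR and 2.68, 2.49 and 0.772 CPM in the mutant, below OreR throughout, while Cpr49Ac rose as given above. Cpr49Ag had 9.41, 6.08 and 3.88 CPM in OreR and 4.02, 4.29 and 1.62 CPM in the mutant and did not pass (adjusted p = 0.10). The low genes Cpr49Ab and Cpr49Ad were not tested with the filter and, chosen after their values were seen, had 46 and 21 counts over OreR and 7 and 0 over the mutant. Without the filter their adjusted p-values were 0.0098 and 0.018. In the cluster of Cpr47E genes, also on 2R, Cpr47Eg had 13.6 CPM per kb and the other 6 between 0.0185 and 0.716 CPM per kb. Cpr47Eg itself had 6.12, 7.44 and 5.83 CPM in OreR and between 4.40 and 6.0015 CPM in the mutant, which overlap (adjusted p = 0.14), next to the called fall of Cpr47Ef.

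**Figure D4:**
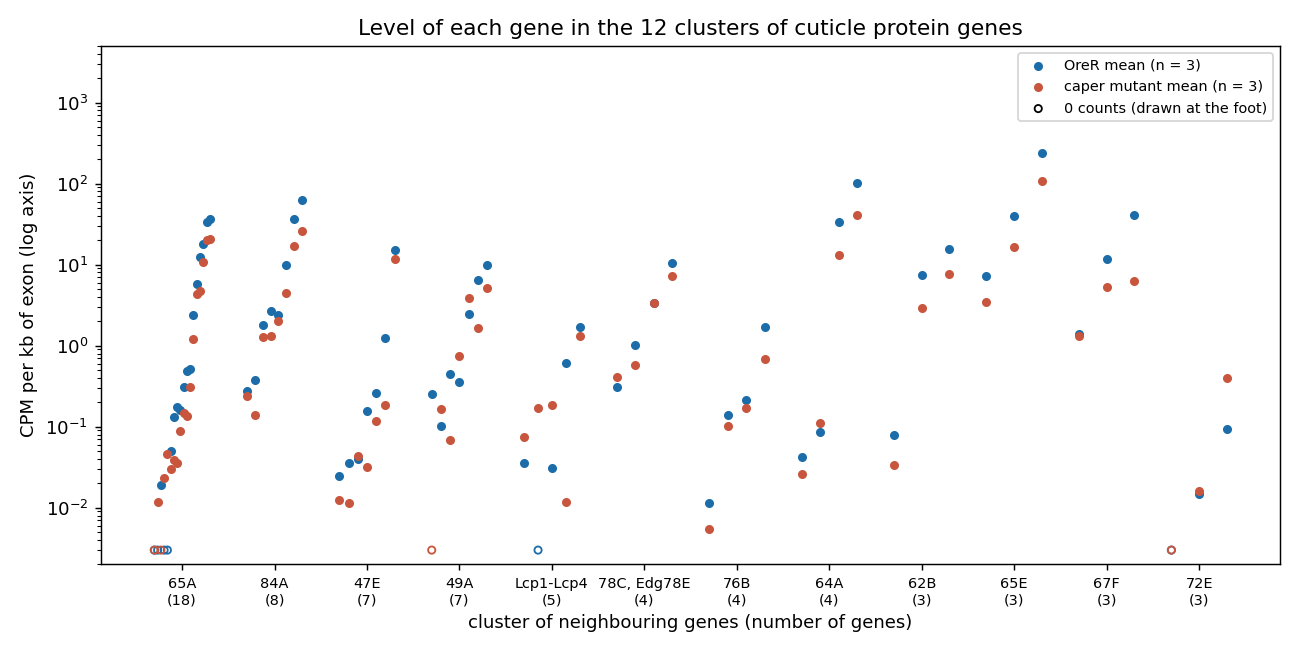
Mean CPM per kb of exon on a log axis in OreR and in the mutant (n = 3 each) for every gene of the 12 clusters, ordered by level within a cluster, with open circles for 0 counts. Levels within the largest cluster run from 0 to 29.0 CPM per kb over all libraries, and those within the Ccp84A cluster from 0.254 to 44.3 CPM per kb.

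Most cuticle protein genes are short and have a single intron. Exonic length ran from 263 to 4525 bases with a median of 800, and 65 genes had 1 annotated junction, 10 had none and 23 had more. Because caper belongs to the splicing machinery, use of exonic bins and junctions was compared within each gene. With diffSpliceDGE of edgeR, 0 of 41 tested cuticle protein genes changed in usage (adjusted Simes p below 0.05, against 6.04% of all tested genes), and 0 had an unadjusted p below 0.05. That test counts differences between libraries in a gene's level as noise. An alternative, added after the junction shares of Cpr67Fa1 were seen, compared each feature with the rest of its gene inside each library. It called 3 of 41 (against 13.1% of all tested genes), namely Cpr67Fa1, Cpr50Cb and Lcp65Ag3.

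The single junction of Cpr67Fa1 took 33.2%, 34.9% and 34.3% of the gene count in OreR and 8.1%, 15.8% and 19.1% in the mutant. The genotypes did not overlap, and the junction fell further than the gene (log2 change in odds -1.82 ± 0.23). In the added test the adjusted p was 9.2e-05 for the junction and 2.8e-06 for the gene. These junction shares prompted that test, so its p-values for this gene are not independent of the choice. With diffSpliceDGE the Simes p of Cpr67Fa1 was 0.891 and the unadjusted p of its junction was 0.297. Junction counts were 560, 192 and 160 in OreR and 15, 26 and 9 in the mutant. The bin listed second (E002), which held 99.5% of the pooled gene count in OreR, held 91.4% in the mutant. The bin E001 of Cpr67Fa1 went from 33.2% to 25.2% and did not pass the added test (adjusted p = 0.116). The junction of the adjacent copy Cpr67Fa2 moved the same way, from 31.4% to 22.9%, without passing it (adjusted p = 0.145). Reads shared between these 2 copies leave their junction shares uncertain too. In Cpr50Cb, which has 4 annotated junctions and 5 exonic bins, the junction listed first (J006) had 57, 23 and 17 counts in OreR and none in the mutant. That was 10.1%, 9.2% and 10.5% of the gene count in OreR, and 0 of 256 mutant counts of the gene, which allows up to 1.17%. The bin listed first (E001) also fell, from 18.9% to 9.8% of the pooled gene count. In the added test the adjusted p was 0.0455 for this bin, 0.00032 for J006 and 0.00069 for the gene. The junction of Lcp65Ag3 moved the other way, from 16.2%, 18.9% and 20.0% in OreR to 25.7%, 25.6% and 22.5% in the mutant. Its adjusted p was 0.0199, and 0.015 for the gene, with the reservation on shared reads given above.

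In the 2 most abundant genes, junction shares overlapped between genotypes in libraries that differed several-fold in level. The junction of Cpr65Ea took 25.8%, 26.9% and 25.1% of the gene count in OreR and 24.7%, 24.3% and 29.1% in the mutant, which overlap. That of Cpr51A took 27.7%, 27.5% and 28.3% in OreR and 29.0%, 25.8% and 27.7% in the mutant, also with overlap. Unannotated junctions were listed for 1 of the 98 genes.

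**Figure D5:**
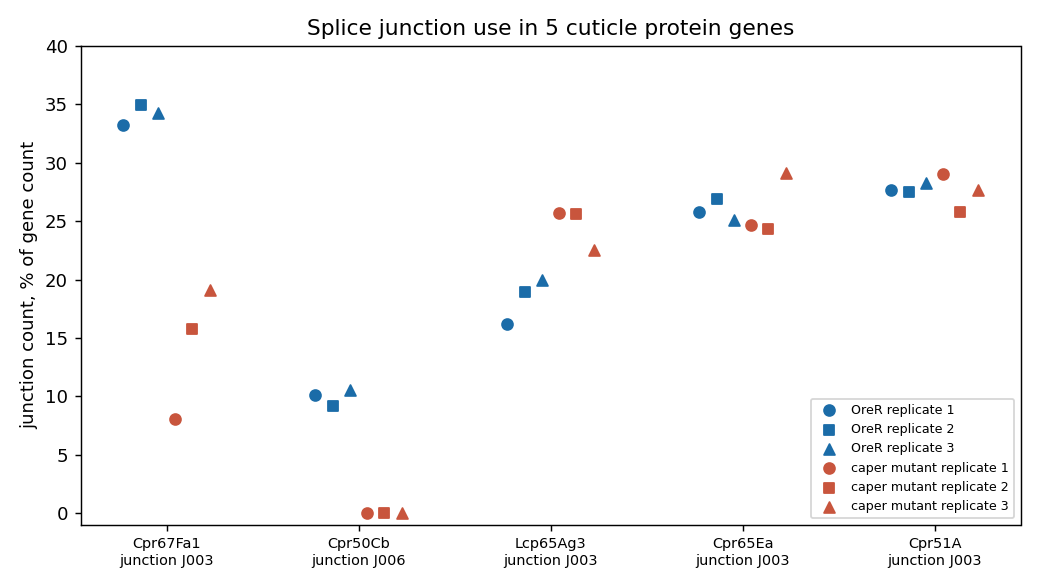
Junction count as a percent of the gene count in each of the 6 libraries for 5 cuticle protein genes. The genotypes are separate for Cpr67Fa1, Cpr50Cb (0% in the mutant) and Lcp65Ag3 and overlap for Cpr65Ea and Cpr51A.

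Many genes that make and shape chitin fell in the mutant. In the list of chitin and cuticle assembly, 16 of 31 tested genes fell and 1 rose (median log2 fold change -0.73, against 20.6% lower and a median of -0.07 for all tested genes). The chitin synthase gene kkv had 225.4, 301.7 and 204.8 CPM in OreR and 165.8, 138.8 and 114.4 CPM in the mutant, without overlap (log2 fold change -0.80 ± 0.18, adjusted p = 0.0094). By the smallest p, the list was led by Idgf5, a chitinase-like growth factor gene (6.26-fold lower), its relative Idgf6 (1.43-fold higher) and the chitinase genes Cht10 and Cht2 (1.53-fold and 1.49-fold lower). In the other structural families 6 of 30 fell and 0 rose (median -0.93), a share of decreases near the 20.6% of all tested genes. The zona pellucida domain gene zye fell from 161.9, 155.5 and 160.4 CPM in OreR to 12.4, 13.6 and 7.25 CPM in the mutant, a 14.4-fold change whose OreR values were nearly equal (adjusted p = 7.8e-05). The giant matrix protein gene dpy fell 1.58-fold, and the Tweedle genes TwdlE and TwdlQ fell 2.84-fold and 4.73-fold.

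Of 15 tanning and pigmentation genes, 5 fell and 1 rose (median -0.73), where 20.6% of all tested genes fell and 26.4% rose. The yellow family gene yellow-c fell from 72.7, 99.96 and 80.9 CPM to 23.4, 20.7 and 15.2 CPM (adjusted p = 0.00045). The related genes yellow-f2 and yellow-b fell 1.83-fold and 1.78-fold, and yellow-f rose 1.71-fold. Among 12 regulators of cuticle and moulting, 3 fell and 1 rose (median -0.34), a share of decreases near that of all tested genes. The ecdysone receptor gene EcR had 149.2, 160.5 and 156.7 CPM in OreR and 193.3, 235.1 and 261.0 CPM in the mutant, and rose 1.48-fold without overlap (adjusted p = 0.0060). The nuclear receptor gene Hr4 fell 1.52-fold, the transcription factor gene vvl 1.40-fold and grh, an epidermal barrier regulator, 1.26-fold. In OreR, grh was highest in replicate 2 at 187.1 CPM, as were 10 of the 55 tested cuticle protein genes, with 152.2 and 155.2 CPM in replicates 1 and 3.

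In the list of 11 genes of differentiated embryonic tissues, whose sums were 4806, 5457 and 3895 CPM in OreR and 3131, 2900 and 2460 CPM in the mutant, 7 fell and 0 rose (median -0.51), against 20.6% and 26.4% of all tested genes. These included the collagen gene vkg (2.24-fold), the hemocyte matrix gene Ppn (1.42-fold), the muscle myosin gene Mhc (2.09-fold) and the synaptic gene brp (1.63-fold). Mutant replicate 3 was lowest in this sum as in that of the cuticle protein genes, and the part of these tissues in the results was not tested. The lists of late larval and of chorion genes held 4 and 1 tested genes, none of which passed. Counts in these lists moved with single libraries: leaving out each in turn gave 8 to 18 decreases in chitin and cuticle assembly, 2 to 10 in the other structural families, 3 to 6 in tanning, 0 to 5 among regulators and 3 to 8 in embryonic tissues, each lowest or joint lowest without mutant replicate 2 except the last, which was lowest without OreR replicate 2. Over the same omissions 9.33% to 15.9% of all tested genes were lower. With upper quartile scaling the decreases were 21, 17, 6, 9 and 11 in that order, with 34.8% of all tested genes lower.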

How the data were processed

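The authors deposited a single table for 6 libraries with counts of 73704 exonic bins, 54271 annotated junctions and 418 unannotated junctions, and counts of the rest of each gene, named as by JunctionSeq per the file headers. The deposited normalised signal equals the counts over a per-library size factor (0.8751 to 1.1234) and was used to check that alone. GSNAP, SAMtools and the builds BDGP5 and mm10 are listed per the submitters' processing notes, with roles, annotation and the strand setting of the counting not given in the sources used here. Gene counts are the smallest sum of feature and rest. Symbols, neighbours and exonic lengths came from a BDGP6 annotation, whose build differs, so no coordinates are printed. 1 further gene symbol of the rule, Cpr57A, has no row here and was not analysed.

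The gene test was edgeR 4.0.16 under R 4.3.3, using filterByExpr, TMM, glmQLFit and glmQLFTest on 10251 genes, at a Benjamini-Hochberg adjusted p of 0.05, and SE is the log2 fold change over the square root of F. Usage was tested with diffSpliceDGE and, as an added alternative, by feature and rest of gene with a term per library. Log2 ratios of libraries used CPM + 0.1. DESeq2 1.42.0 was an alternative. Scripts were tested on simulated data.

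Titles gave genotype and replicate. Libraries differed beyond sampling noise, and p-values measure the spread between these replicates. Members and lists were chosen with earlier results of these data known. 3 genes listed by mistake (Cpn, trn, Tsp) were left out. Named members were those that passed, the 8 highest per kb, the 4 largest changes that did not pass, the genes named in the rule for members, those with changed usage, and the 4 smallest p in each other list. Edg91, kkv and members named as neighbours of these were chosen after their values were seen.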

Additional observations from a re-analysis of the deposited data

How the results depend on the processing

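With upper quartile scaling 1 cuticle protein gene rose, as when annotated junctions alone were counted, where 22.1% and 27.6% of all tested genes rose. With junctions alone 15 of 40 fell (37.5%, against 19.5% of all tested genes). Without the filter on low counts 5 rose and 15 of 96 fell (15.6%), against 21.3% and 12.9% of all tested genes. With all genes as filtered 2 rose. Leaving out each library in turn gave 5 to 20 decreases (8.8% to 35.7%), 1 to 3 increases, medians of -1.36 to -0.40 and 0 changes in usage. Over the same omissions 9.33% to 15.9% of all tested genes were lower and 21.0% to 26.2% higher. Leaving out OreR replicate 1 and mutant replicate 3 together was chosen after seeing the data. It gave a median of -0.21 with 9 decreases of 56 (16.1%), against -0.042 and 10.4% for all tested genes. The log2 fold changes of Cpr65Ea, Lcp65Ag2, Ccp84Ae and Ccp84Ab then turned to 0.26, 0.10, 0.39 and 0.01, and those of Ccp84Ae and Ccp84Ab to 0.37 and 0.06 without OreR replicate 1. On leaving out single libraries these genes reached -1.49, -1.1, -0.47 and -0.86 at the lowest, and -0.06, -0.05, 0.37 and 0.06 at the highest. The causes were not tested.

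Same-numbered replicates had correlations of deviations of 0.09, -0.012 and 0.597, and not every library correlated best with its own number, so the numbers were not taken to pair the samples. With the replicate number as a block 26 genes fell in place of 13, which was 47.3% against 22.6% of all tested genes, and 1 changed in usage (adjusted p = 0.016), as did 536 of 8510 genes in all. Comparing each feature with the rest of its gene within libraries called 3. Counts under about 10 per library limit what can be said of the 43 genes not tested.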
